A study of Mus musculus with 2 samples.

Results

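Lipid-associated macrophages are the foam-like macrophages that gather around dead, lipid-laden cells in fatty tissue, fatty liver and the arterial wall. The 10 genes described here belong to the program by which these cells are known: the surface receptor Trem2 and its adaptor Tyrobp, the lectin receptor Clec7a, the lysosomal glycoprotein Gpnmb, the tetraspanins Cd9 and Cd63, the lipid enzymes Lpl and Pla2g7, and the secreted proteins Lgals3 and Spp1. They were read with 15 of the 41174 probes of the array, and are 10 of its 27962 gene names. The genes were chosen from this family with their differences between the diets on these same 6 arrays already known, so every difference between the diets given for them is a description and carries no test.

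The tissue was the whole liver of male apoE-KO mice on the C57BL/6 background. At 10 weeks of age the mice received either normal chow or the same chow supplemented with 1.25% Chol (the high-Chol diet) for 1 week. Both groups carried the Apoe disruption, and no wild-type liver was measured. Total RNA from 3 independent experiments per diet was labelled with Cy3 and hybridised to Agilent whole mouse genome arrays, 6 in all. The spread given is that between these arrays, and how many livers went into each is not given in the sources used here.

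Trem2 is a receptor for lipids and lipoproteins, apolipoprotein E among them, and signals through Tyrobp, whose activation motif recruits the kinase Syk. Macrophages that take up much lipid switch this receptor on together with genes for lysosomal handling, lipoprotein hydrolysis and matrix contact. In the liver such cells are found beside steatotic hepatocytes and in fibrotic areas, whereas resident Kupffer cells carry their own set of markers such as Clec4f. Several of the genes are not made by macrophages alone, and Cd9, Cd63, Lgals3 and Spp1 are also found in epithelia, Spp1 in cells of the bile ducts among them. In whole liver RNA, more cells of a type and more RNA per cell cannot be told apart.

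Each signal is given as the log2 of the background-subtracted spot intensity relative to the 75th percentile of its own array, so that 0 is the level of that percentile. Before scaling, the percentile was at an intensity of 271 to 325 on the 3 normal chow arrays, 373 on the first high-Chol array and 762 to 799 on the other two. All 3 normal chow arrays and the first high-Chol array were on slide 1, while the second and the third high-Chol arrays were on slide 2 and had been read with an earlier version of the scanner software. Arrays and replicates are numbered here within a diet by slide and position, as the labels do not say which array is which replicate. Between 50.5% and 67.2% of the spots of an array were well above background, which is the scanner software's own mark for a spot that exceeds its local background. All 6 arrays read the Apoe probe well above background. Its signals were 3.31, 1.66 and 3.81 under normal chow and 3.20, 3.18 and 3.56 under the high-Chol diet. Where this probe lies relative to the disrupted part of Apoe is not given in the sources used here, so it does not check the genotype.

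The probes decide what was seen, and 5 of the 15 are shown. They were picked because the array annotation (mm7) spreads their 60 bases over more than 60 bases of the genome, so that each one reads across an exon junction of its transcript. No base is set in capitals here.
Trem2 A_51_P269549: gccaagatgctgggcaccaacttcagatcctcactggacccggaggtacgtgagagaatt
Tyrobp A_51_P261517: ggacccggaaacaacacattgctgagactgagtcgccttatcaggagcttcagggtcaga
Lgals3 A_51_P101929: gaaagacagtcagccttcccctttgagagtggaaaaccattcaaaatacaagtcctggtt
Cd63 A_51_P511810: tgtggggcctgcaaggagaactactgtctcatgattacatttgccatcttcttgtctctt
Pla2g7 A_51_P447835: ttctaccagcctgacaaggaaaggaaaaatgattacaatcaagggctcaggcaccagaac
In the mm7 annotation these stretches were chr17:46496563-46496699 for Trem2, chr7:27358831-27360558 for Tyrobp, chr14:42712515-42713331 for Lgals3, chr10:128413370-128413583 for Cd63 and chr17:41727663-41731585 for Pla2g7, all on the plus strand.

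Of the 10 genes, 9 had higher signals on all 3 high-Chol arrays than on any normal chow array, and Spp1 alone had lower ones. Over all genes with a value on every array, 11.9% were higher without overlap of the diets, and since the genes were chosen on this contrast nothing is read from the count. The differences of the 10 ran from -0.57 to 7.40 on the log2 scale with a median of 1.75, where the median over all 16727 genes tested was -0.02. All 10 passed the filter on dim probes, Gpnmb through its high-Chol arrays alone. In the fit across all genes, 8 of the 10 were called higher at an adjusted p under 0.05, beside 2.69% of all genes called higher, 0.227% called lower and 2.92% in either direction, and that count too only restates the choice.

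**Figure D1:**
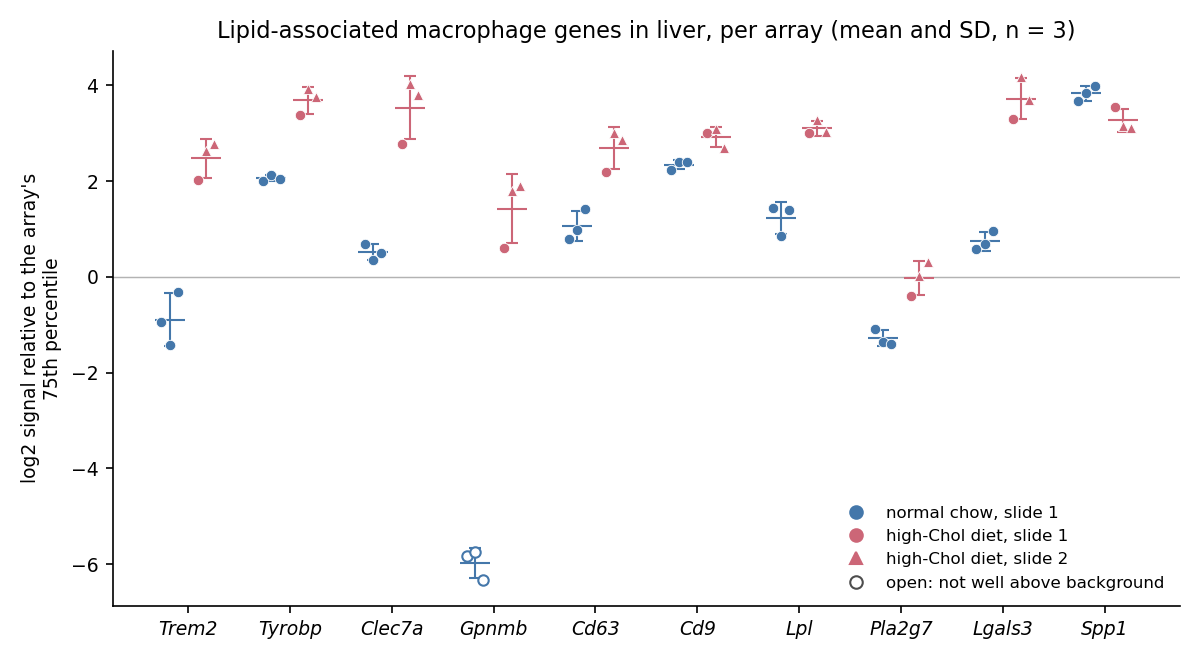
Signal of the 10 genes on each array, as the log2 relative to the 75th percentile of the array (vertical axis), for normal chow (blue) and the high-Chol diet (red), with the slide given by the symbol and the mean and SD of 3 arrays as bars; open symbols were not well above background. Spp1, at 3.68 to 3.99 under normal chow and 3.11 to 3.54 under the high-Chol diet, runs against the other 9 genes.

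Trem2 was measurable under normal chow, below the 75th percentile, and lay above it under the high-Chol diet. Its probe read -0.94, -1.43 and -0.32 with normal chow and 2.01, 2.63 and 2.78 with the high-Chol diet. All high-Chol arrays lay above all normal chow arrays, with a gap wider than the spread within a diet. The means were -0.89 ± 0.55 and 2.47 ± 0.41 (SD, n = 3 each), a log2 difference of 3.37 or 10.3-fold. A second Trem2 probe, the junction probe printed above, starts 302 bases away and gave -2.85, -3.62 and -2.33 against 0.36, 0.83 and 0.89. Its difference of 3.63 was close to that of the first, and both probes were well above background on every array. With the normexp background correction the difference of the first probe was 2.59.

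Tyrobp, the adaptor without which Trem2 cannot signal, was well above background on every array. Its signals were 2.01, 2.13 and 2.05 under normal chow and 3.38, 3.92 and 3.76 under the high-Chol diet. The normal chow arrays lay close together, and all 3 high-Chol arrays were above them. The means were 2.06 ± 0.06 and 3.68 ± 0.28 (SD, n = 3 each), a difference of 1.62 or 3.08-fold, beside 3.37 for Trem2.

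Clec7a is Dectin-1, a receptor for fungal beta-glucan that signals through Syk and marks lipid-laden and disease-associated phagocytes. It read 0.69, 0.36 and 0.50 under normal chow and 2.78, 4.02 and 3.80 under the high-Chol diet. No array of one diet reached those of the other, and the slide 1 array was the lowest of the 3 high-Chol arrays by more than 1 log2 unit. The difference of the means, 0.51 ± 0.16 against 3.54 ± 0.66 (SD, n = 3 each), was 3.02, or 8.12-fold.

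Gpnmb, a glycoprotein of lysosomes and the cell surface that is made by macrophages under lysosomal lipid load, was not well above background under normal chow. Its upstream probe read -5.83, -5.76 and -6.34 there, not well above background on any of the 3 arrays. On the high-Chol diet it read 0.60, 1.80 and 1.89, well above background on all 3. The normal chow values are therefore only a bound. Set against the lowest signal that counted as well above background on each normal chow array, Gpnmb after high-Chol feeding was at least 63.1-fold higher. The measured means were -5.98 ± 0.32 and 1.43 ± 0.72 (SD, n = 3 each), 7.40 apart on the log2 scale. This size depends on how the background is treated, and with the normexp correction it was 2.60.

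The other Gpnmb probe starts 726 bases further along the gene and was not well above background on any of the 6 arrays. It read -5.70, -6.77 and -7.18 under normal chow and -7.12, -6.27 and -6.46 under the high-Chol diet, and the diets overlapped. The difference between the diets for Gpnmb thus rests on 1 of its 2 probes. Both are assigned to the same Gpnmb transcript by the array annotation.

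**Figure D2:**
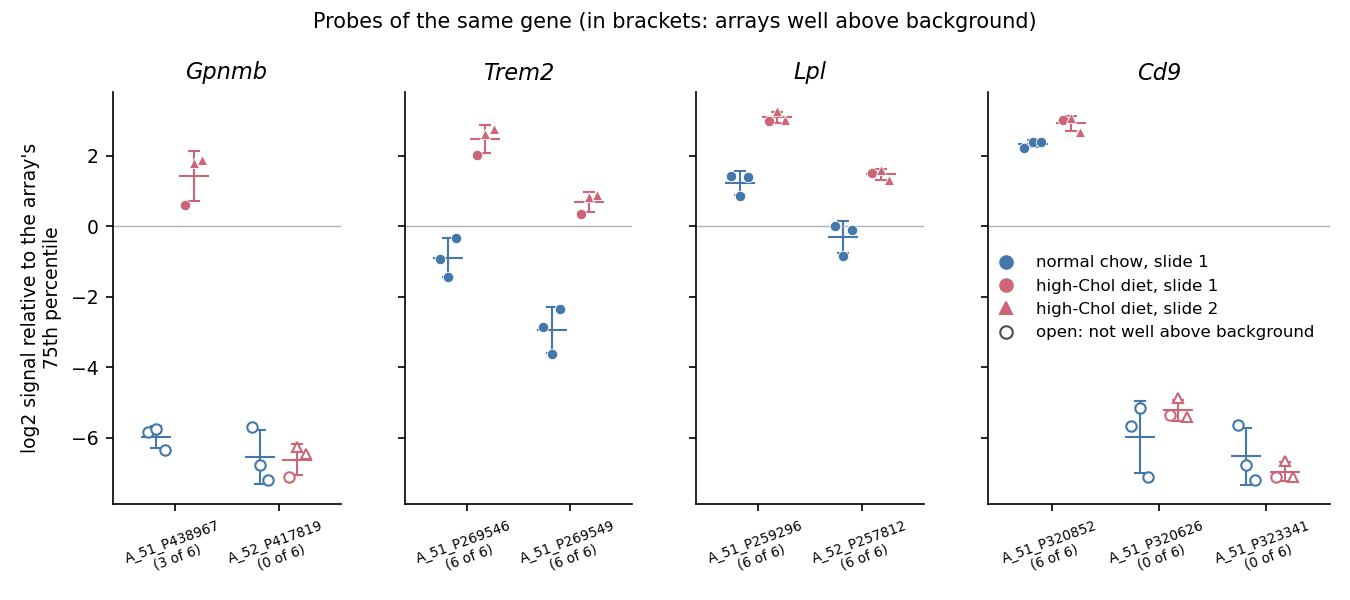
Signal of each probe of the 4 genes that have more than 1, on each array, as the log2 relative to the 75th percentile (vertical axis); colours, symbols and bars mark diet, slide, mean and SD of 3 arrays, and the number of arrays well above background stands in brackets under each probe. The paired probes of Trem2 (differences 3.37 and 3.63) and Lpl (1.87 and 1.79) gave like differences, whereas the second Gpnmb probe and the additional Cd9 probes were not well above background on any array.

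The tetraspanins are membrane proteins of endosomes and the cell surface. Cd63, found in late endosomes and lysosomes, read 0.79, 0.97 and 1.42 under normal chow and 2.19, 3.01 and 2.86 under the high-Chol diet. The diets did not overlap, and the slide 1 array again was the lowest of the high-Chol arrays. Its means of 1.06 ± 0.32 and 2.69 ± 0.44 (SD, n = 3 each) were 1.62 apart, or 3.08-fold. On the slide 1 arrays alone the difference was 1.12.

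Cd9, a tetraspanin used to sort lipid-associated macrophages from adipose tissue, had the smallest difference of the 9. It read 2.23, 2.41 and 2.39 under normal chow and 3.01, 3.09 and 2.69 under the high-Chol diet. The nearest arrays of the diets were those at 2.41 and 2.69, and the lower of the high-Chol signals was on slide 2. The difference between 2.34 ± 0.10 and 2.93 ± 0.21 (SD, n = 3 each) was 0.59. It was 0.35 when the arrays were scaled to their medians. A further pair of probes named Cd9 was made to other cDNA clones, one of them on the opposite strand, and neither was well above background on any array.

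Of the lipid enzymes, Lpl hydrolyses the triacylglycerol of VLDL and chylomicrons and is low in the adult liver cell. Its brighter probe read 1.44, 0.85 and 1.40 under normal chow and 3.00, 3.28 and 3.03 under the high-Chol diet. The high-Chol arrays lay close together, well clear of the normal chow arrays. The means were 1.23 ± 0.33 and 3.10 ± 0.16 (SD, n = 3 each), 1.87 apart, or 3.65-fold. A second Lpl probe, 5217 bases upstream in the annotation, gave 0.02, -0.83 and -0.11 against 1.52, 1.60 and 1.31, a difference of 1.79. On slide 1 alone the difference was 1.76, close to that over all arrays.

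Pla2g7, the lipoprotein-bound phospholipase A2 that degrades platelet-activating factor and oxidised phospholipids, is secreted mainly by macrophages. Its signals were -1.09, -1.36 and -1.39 under normal chow and -0.41, 0.01 and 0.30 under the high-Chol diet. No array of one diet reached those of the other, and the slide 1 array was the nearest. The difference of the means, -1.28 ± 0.17 against -0.03 ± 0.36 (SD, n = 3 each), was 1.25, or 2.38-fold. It was 0.52 with the normexp background correction.

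Lgals3, or galectin-3, is a lectin that macrophages secrete and that gathers on damaged lysosomes. It read 0.58, 0.68 and 0.96 under normal chow and 3.30, 4.17 and 3.70 under the high-Chol diet. Each high-Chol array was more than 2 log2 units above each normal chow array. Its means of 0.74 ± 0.20 and 3.72 ± 0.44 (SD, n = 3 each) differed by 2.98, or 7.91-fold.

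Spp1, or osteopontin, the secreted ligand of integrins and Cd44, is often named together with Trem2 and Gpnmb, yet its signal was lower under the high-Chol diet. The means over its 10 spots per array were 3.68, 3.85 and 3.99 under normal chow and 3.54, 3.15 and 3.11 under the high-Chol diet. All 3 high-Chol arrays were below all 3 normal chow arrays, the slide 1 array by the smallest distance. The difference between 3.84 ± 0.16 and 3.27 ± 0.24 (SD, n = 3 each) was -0.57, or 0.673-fold. On slide 1 alone it was -0.30, and with the normexp background correction -0.27. Within an array the 10 spots spread by an SD of 0.06 to 0.17, and on slide 1 the spots of the high-Chol array, from 3.22 to 3.66, overlapped those of each normal chow array.

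Slide and diet were partly mixed, since slide 2 held high-Chol arrays only. The first high-Chol array, which shared its slide with the normal chow arrays, was the lowest of the 3 high-Chol arrays for 8 of the 9 genes with higher signals. With slide as a block, which leaves that array against the 3 normal chow arrays, the differences of the 10 genes kept their directions. They were 2.91 for Trem2, 1.31 for Tyrobp, 2.27 for Clec7a, 6.57 for Gpnmb, 1.12 for Cd63, 0.66 for Cd9, 1.76 for Lpl, 0.87 for Pla2g7, 2.56 for Lgals3 and -0.30 for Spp1. The blocked fit called 1 of the 10, Gpnmb, beside 0.0658% of all genes, and nothing is read from that call, since Gpnmb was chosen on this contrast and was not well above background under normal chow. Whether slide or the animals set the lower signals of that array was not tested.

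**Figure D3:**
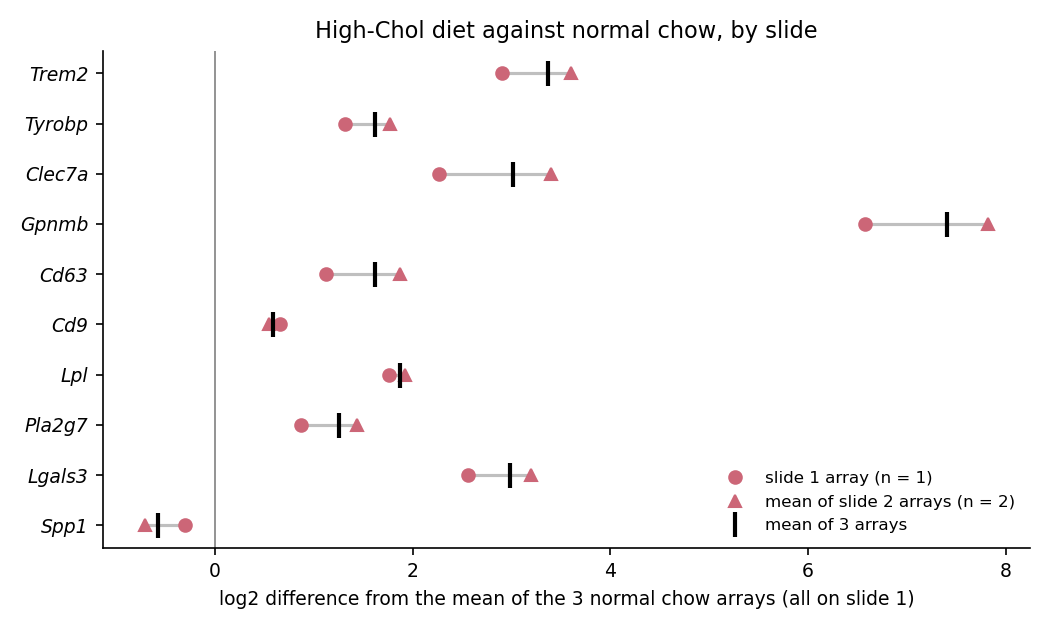
Log2 difference from the mean of the 3 normal chow arrays (horizontal axis) for the high-Chol array on slide 1 (circle, n = 1), the mean of the high-Chol arrays on slide 2 (triangle) and all 3 (bar), for each of the 10 genes. Every symbol of the 9 genes lies right of 0 and every symbol of Spp1 left of it, with Gpnmb at 6.57 on slide 1, measured against normal chow signals that were not well above background.

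Markers that all macrophages share were also higher under the high-Chol diet, so each gene was set against them within the array. The reference was the mean log2 signal of the 12 pan-macrophage markers with a value on every array, which was 1.06 higher under the high-Chol diet. Its markers did not move evenly, with differences from 0.28 for Csf1r to 1.78 for Lyz2, so the values below depend on which markers are averaged. Relative to the reference, Trem2 differed by 2.31, Clec7a by 1.96, Lgals3 by 1.93, Lpl by 0.81 and Tyrobp by 0.57, each without overlap of the diets. The measured values of Gpnmb gave 6.35, but its normal chow signals were not well above background, so that no exact size can be given. For Cd63 the relative difference was 0.57 and for Pla2g7 0.19, and both overlapped between the diets. Cd9 was above the reference by a mean of 0.58 under normal chow and 0.11 under the high-Chol diet, a relative difference of -0.47. Spp1 had one of -1.63, and neither gene overlapped between the diets. The relative differences of the 9 genes other than Gpnmb thus ran from -1.63 to 2.31, and they do not separate more macrophages from more RNA per cell.

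Pearson's r over the 6 arrays lay between 0.75 and 0.99 for the 36 pairs of the 9 genes with higher signals, with a median of 0.97, and between -0.97 and -0.69 for Spp1 with each of them. These are descriptions over 6 arrays that fall into 2 diets and share slides, and since the genes were chosen for their differences between the diets, high values of r follow from the choice. Of the 14034 genes whose probe passed on every array, 2.32% had an r above 0.95 with the mean standardized profile of the 10. The 5 with the highest r were Pigz, Vim, Axl, 2610528K11Rik and Evl, at 0.998 to 0.999, where Vim encodes the intermediate filament vimentin of mesenchymal and myeloid cells and Axl a receptor kinase for dying cells. Most like Gpnmb were Ifi30, Oxct1, Tlr2, Mical1 and Icam1, at 0.998 to 1.00, where the 3 normal chow signals of Gpnmb were not well above background and the order of these genes is therefore not firm, among them the lysosomal thiol reductase Ifi30 and the lipopeptide receptor Tlr2. Most like Trem2 were AU017455, Galnt6, Olfr508, D030070L09Rik and Xlr, at 0.995 to 0.999.

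Other genes of the lipid-associated macrophage program split into a set that was called higher and a larger set that was not called. Of 39 listed, 36 could be tested, and limma with Benjamini-Hochberg adjustment called 11 higher and 0 lower, or 30.6% higher beside 2.69% of all genes, with 20 higher and 1 lower where the unadjusted p was under 0.05. The median difference was 0.54, beside -0.02 over all genes. Capg, which caps actin filaments, rose by 2.24 ± 0.14 (SE; limma adjusted p = 0.0025), from -0.81, -0.80 and -0.74 to 1.32, 1.56 and 1.48. The inhibitory receptor Lilrb4a (Lilrb4 on the array) rose by 2.80 ± 0.34 (SE; limma adjusted p = 0.011), Cd84, a receptor of the SLAM family, by 1.58 ± 0.18 (SE; limma adjusted p = 0.0091) and the small surface glycoprotein Cd52 by 1.35 ± 0.17 (SE; limma adjusted p = 0.011).

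Mmp12, Itgax and Ch25h are given as well, chosen after their values were seen because of their size. Mmp12, the macrophage elastase, was not well above background under normal chow and at least 10.5-fold higher after high-Chol feeding (limma adjusted p = 0.0045). Its signals there were -1.74, -0.75 and -1.01. Itgax, the integrin CD11c, well above background on 2 of 3 normal chow arrays, rose by 3.27 ± 0.29 (SE; limma adjusted p = 0.0060), and Ch25h, which makes 25-hydroxycholesterol, was at least 4.62-fold higher (limma adjusted p = 0.041). Like Mmp12, Ch25h was not well above background on any normal chow array. Both entered the fit through the high-Chol arrays alone, so their p-values rest on normal chow readings that were not well above background. Genes of the list with broad use in the liver were among those not called. Grn had a difference of -0.15, Lipa 0.13, Npc2 0.08, Plin2 0.23 and Fth1 -0.14, and for Plin2 1 high-Chol array was left out as an outlier spot. Cst7, a cystatin that marks such cells in the brain, was not well above background on any array.

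With slide as a block, limma called 1 of the 36, Capg, and without normal chow replicate 2 it called 3. Without the second high-Chol array it called 4 and without the third it called 7. Without the first high-Chol array, which leaves diet and slide inseparable, it called 17.

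The genes around Trem2 in the membrane and below it were called in part. In the list of TREM family members and of the ITAM pathway, the chain from the phosphorylated adaptor through Syk and phospholipase C, 17 of 19 genes were tested, 6 were called higher and 0 lower, or 35.3% higher beside 2.69% of all genes (11 higher and 0 lower where the unadjusted p was under 0.05), and all 17 differences were above 0. Their median was 0.91. Syk read -1.34, -1.57 and -1.55 under normal chow and -0.51, -0.26 and -0.35 under the high-Chol diet, a rise of 1.12 ± 0.15 (SE; limma adjusted p = 0.016). Plcg2, the phospholipase C of the pathway, rose by 1.26 ± 0.17 (SE; limma adjusted p = 0.014) and Inpp5d, the inositol phosphatase SHIP1 that restrains it, by 1.35 ± 0.20 (SE; limma adjusted p = 0.019). Fcer1g, the other common adaptor with such a motif, rose by 1.18 ± 0.17 (SE; limma adjusted p = 0.019).

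The other called genes were Trem3, at least 1.41-fold higher, and Treml4, higher by 0.91. Trem3 entered the fit through the high-Chol arrays alone, so its call rests on normal chow readings that were not well above background. Trem1 entered in the same way and was not called. With the filter for all 6 arrays, 5 of 12 were called higher. Adam10 and Adam17, the proteases that cut Trem2 from the cell surface, differed by 0.34 and 0.04 and were not called. With slide as a block none of the 17 was called by limma (7 had an unadjusted p under 0.05). Leaving out normal chow replicate 1 gave 3 calls, and leaving out normal chow replicate 2 or 3 or high-Chol replicate 2 or 3 gave 0 (9 to 11 before adjustment). The median under the block was 0.61.

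Of the lysosomal genes at large all 23 listed were tested, and 1 was called higher and 0 lower, or 4.35% higher beside 2.69% of all genes (4 higher and 2 lower where the unadjusted p was under 0.05), and the median difference was -0.13. The one called was Lgmn, the asparaginyl endopeptidase legumain, at 3.51, 3.33 and 3.57 under normal chow and 4.32, 4.55 and 4.47 under the high-Chol diet, a rise of 0.97 ± 0.15 (SE; limma adjusted p = 0.024). It was not called with slide as a block, where its difference was 0.85, or when any 1 array other than the first high-Chol array was left out. Of the 23 differences 6 were above 0 and 17 below. Among the genes not called, Lamp1 differed by -0.13, Lamp2 by -0.31 and Mcoln1 by -0.70, and Atp6v1b2 by 0.80, Gla by 0.43 and Hexa by 0.39.

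Of 13 transcription factors of macrophages and lysosomes, 2 were called higher and 0 lower, or 15.4% higher beside 2.69% of all genes. They were Irf8, at 1.10 ± 0.22 (SE; limma adjusted p = 0.047), and Spi1, which encodes PU.1, at 1.22 ± 0.21 (SE; limma adjusted p = 0.034) and well above background on 1 of 3 normal chow arrays. Both calls were lost with slide as a block, with median scaling and with quantile normalization (3 at an unadjusted p under 0.05 in each), and without normal chow replicate 1 or 2 or high-Chol replicate 2 or 3. Mitf, Tfe3, Tfeb and Tfec, the family that drives lysosomal genes and Gpnmb, differed by 0.15, -0.06, 0.06 and 0.18 and were not called.

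Relatives and partners of the 10 genes gave a mixed picture. Of 59 listed, 50 were tested, 5 were called higher and 0 lower, or 10.0% higher beside 2.69% of all genes (12 higher and 7 lower where the unadjusted p was under 0.05), and the median was -0.02, as over all genes. All 5 are surface proteins found on white blood cells, a trait that was not tested. Genes of these lists that were not called share it, such as Itga4 at 1.09, Cd37 at 0.78, Clec4a2 at 0.44 and Cd82 at -0.41. Clec4n, which encodes Dectin-2, rose by 2.21 ± 0.21 (SE; limma adjusted p = 0.0063), the white blood cell tetraspanin Cd53 by 1.62 ± 0.18 (SE; limma adjusted p = 0.0091) and the Spp1 receptor Cd44 by 1.15 ± 0.20 (SE; limma adjusted p = 0.034). Clec4e, the receptor Mincle for glycolipids and dead cells, was not well above background under normal chow and was at least 15.9-fold higher (limma adjusted p = 0.0019), and Clec4d, well above background on 1 of 3 normal chow arrays, rose by 3.74 ± 0.29 (SE; limma adjusted p = 0.0045). Clec4e entered the fit through the high-Chol arrays alone, so its p-value rests on normal chow readings that were not well above background.

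Of the 13 tetraspanins tested, Cd53 alone was called, with 3 higher and 2 lower where the unadjusted p was under 0.05. The other 12 ran from -0.85 for Tspan4 to 0.78 for Cd37, with Cd81 at -0.23. The 4 galectins tested had a median of -0.23 (0 called by limma, 1 at an unadjusted p under 0.05), with Lgals1 at 0.72. The partners and relatives of Lpl had a median of -0.32 (0 called, 2 lower where the unadjusted p was under 0.05), among them the lipase Lipc at 0.13, the anchor Gpihbp1 at 0.21, and the inhibitor Angptl4 at -0.87. Phospholipase A2 and platelet-activating factor acetylhydrolase genes had a median of -0.02 (0 called, 1 higher and 1 lower where the unadjusted p was under 0.05). With slide as a block, limma called 1 of the 50, Clec4e, which had entered the fit through the high-Chol arrays alone, so that nothing is read from that call. Without normal chow replicate 2 it called 2.

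**Figure D4:**
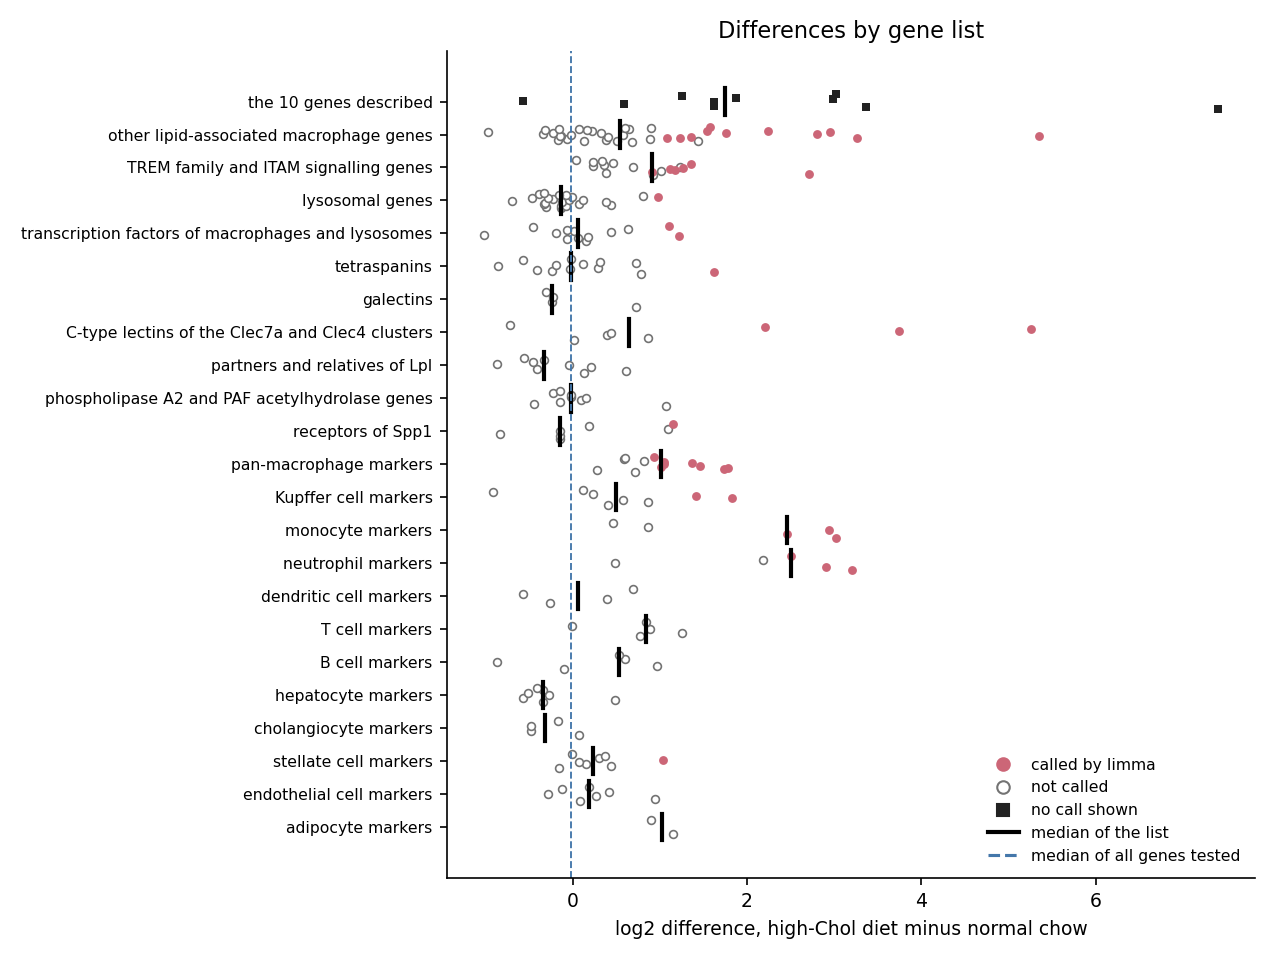
Log2 difference between the diets (horizontal axis) of every gene tested in the 10-gene set and each list, with red points for genes called by limma, open points for genes not called, black squares for the 10 genes, for which no call is shown, black bars for list medians and a dashed line for the median of all genes. Of the genes tested, 11 of 36 other lipid-associated macrophage genes, 6 of 17 TREM and ITAM genes and 3 of 8 C-type lectins are red, of which the blocked fit called 1, 0 and 1. The lysosomal list has its median at -0.13.

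The liver was checked by its markers and by those of other cells it can hold. Hepatocyte markers, albumin among them, were well above background throughout, and summed to 2333 to 2663 times the 75th percentile under normal chow and 1758 to 2005 under the high-Chol diet. None of the 7 was called by limma, with 1 higher and 2 lower where the unadjusted p was under 0.05. Of the 13 pan-macrophage markers tested, 8 were called higher and 0 lower, or 61.5% higher beside 2.69% of all genes. All 13 differences were above 0. With median scaling 4 were called and with normexp 0. Among the 8 were Cd68, higher by 1.74 ± 0.15, and Lyz2, higher by 1.78 ± 0.23 (SE; limma adjusted p = 0.0060 and 0.013). The pan-macrophage sum was 101 to 123 under normal chow and 235 to 341 under the high-Chol diet. Lyz2 had the highest signals of the list and weighs most in the sum, and the mean log2 difference of the 12 genes summed was 1.06. Csf1r differed by 0.28 and Adgre1, for which 1 array was left out as an outlier spot, by 0.71, and neither was called.

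Kupffer cell markers summed to 126 to 135 under normal chow and 260 to 304 under the high-Chol diet. Of the 8, 2 were called higher and 0 lower, or 25% higher beside 2.69% of all genes. They were the scavenger receptor Marco, by 1.83, and Cd5l, by 1.42. Cd5l had the highest signals of the list and weighs most in the sum, and the mean log2 difference of the 8 genes was 0.57. Clec4f and Timd4 differed by 0.41 and 0.86 and Cd163 by -0.91, and none of these was called. Monocyte markers summed to 3.65 to 4.72 under normal chow and 5.93 to 7.43 under the high-Chol diet. Plac8, which was not called, had the highest signals of the list and weighs most in the sum. The mean log2 difference of the 5 genes was 1.95. All 5 differences were above 0, and 3 of 5 were called higher, or 60% beside 2.69% of all genes. They were Chil3, by 2.46, Ccr2, by 3.02 and well above background on 1 of 3 normal chow arrays, and F13a1, at least 3.40-fold higher and not well above background on any of them. F13a1 entered the fit through the high-Chol arrays alone, so nothing is read from its call. The neutrophil markers summed to 1.61 to 1.82 and 9.68 to 16.0. S100a9 had the highest signals of the list and weighs most in the sum, and the mean log2 difference of the 5 genes was 2.26. All 5 differences were above 0, and 3 of 5 were called higher, or 60% beside 2.69% of all genes. They were S100a8, by 3.21, S100a9, by 2.90, and Retnlg, at least 3.76-fold higher and not well above background on any normal chow array. Retnlg too entered the fit through the high-Chol arrays alone, so nothing is read from its call. The granule genes Elane, Ngp and Camp were not well above background on any array. Mpo and Ltf, also granule genes, were tested and not called. Mpo, well above background on every array, differed by 0.48. Ltf, well above background on 1 of 3 normal chow arrays, differed by 2.18 without overlap of the diets.

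No dendritic cell, T cell, B cell, cholangiocyte, endothelial or adipocyte marker was called by limma, with 7 in all of these lists at an unadjusted p under 0.05, and of the stellate cell markers Col1a1 alone was called, at 1.04. That call was lost with slide as a block, where the difference was 1.16, and without normal chow replicate 2 or 3 or high-Chol replicate 2 or 3. The T cell markers summed to 0.635 to 0.683 and 0.767 to 1.39, and the sums of the dendritic cell, B cell, cholangiocyte, stellate cell, endothelial and adipocyte markers overlapped between the diets. Cd209a, Cftr, Adipoq and Lep were not well above background on any array. The sums of the pan-macrophage, Kupffer cell, monocyte, neutrophil and T cell markers were higher on all 3 high-Chol arrays, as were the 9 genes, the hepatocyte sum was lower, and the part of these cells in the result was not tested. With slide as a block, limma called none of the pan-macrophage, Kupffer cell or neutrophil markers (11, 5 and 3 at an unadjusted p under 0.05) and 1 monocyte marker, Chil3. Leaving out any 1 array other than the first high-Chol array gave 1 to 3 calls among the pan-macrophage markers, 0 or 1 among the Kupffer cell markers, 0 to 2 among the monocyte markers and 2 among the neutrophil markers.

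**Figure D5:**
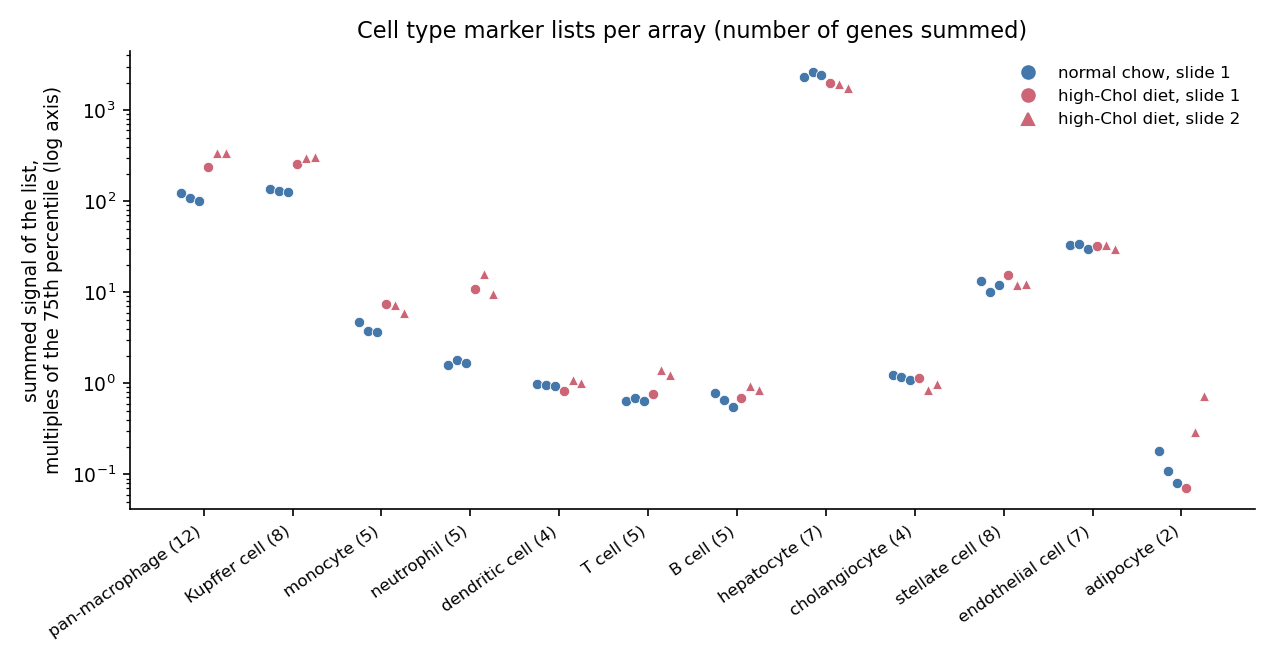
Summed signal of each marker list on each array, in multiples of the 75th percentile of the array (vertical axis, log scale), with colour for diet, symbol for slide and the number of genes summed in brackets. The macrophage, Kupffer cell, monocyte, neutrophil and T cell sums are higher on all 3 high-Chol arrays, as for the neutrophil markers at 9.68 to 16.0 against 1.61 to 1.82, and the hepatocyte sum is lower. Lyz2, Cd5l, Plac8 and S100a9 weigh most in the macrophage, Kupffer cell, monocyte and neutrophil sums, in that order.

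Because Trem2 and Gpnmb differed in the same direction, the stretch before each start site was searched for motifs of factors known in macrophages and lysosomes. RefSeq's windows (GRCm38.p6) of 250 bases before to 50 after each start were used, which held 8 of the 10 genes, all but Tyrobp and Lpl. The E-box CACGTG was in 7.15% of 32851 windows, the M-box TCATGTG in 3.77% and the form TCACGTG, which contains the E-box, in 3.77%, each counted on both strands, and none was in a window of the 8 genes. The AP-1 pattern TGANTCA, which admits any base at its centre, was in 7.81% of windows and in those of Gpnmb and Trem2. The letters were TGACTCA in Gpnmb and TGAATCA in Trem2, so the 2 genes share the loose pattern and not the same site. The PU.1 core GAGGAA was in 28.3% of windows and in those of Cd63, Clec7a, Spp1 and Trem2. A match is a description of the letters and not a site of binding. The 250 bases before the start of each are shown 5′ to 3′ on the gene's strand, with AP-1 and PU.1 matches in capitals, and the match of Gpnmb lies 8 bases after its start, outside the stretch shown.
Trem2 chr17:48346151-48346400 (+): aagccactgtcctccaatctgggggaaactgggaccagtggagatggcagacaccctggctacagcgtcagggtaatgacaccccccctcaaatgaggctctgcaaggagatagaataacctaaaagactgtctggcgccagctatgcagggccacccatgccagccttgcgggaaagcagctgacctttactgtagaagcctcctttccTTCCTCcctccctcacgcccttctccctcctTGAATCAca
Gpnmb chr6:49036268-49036517 (+): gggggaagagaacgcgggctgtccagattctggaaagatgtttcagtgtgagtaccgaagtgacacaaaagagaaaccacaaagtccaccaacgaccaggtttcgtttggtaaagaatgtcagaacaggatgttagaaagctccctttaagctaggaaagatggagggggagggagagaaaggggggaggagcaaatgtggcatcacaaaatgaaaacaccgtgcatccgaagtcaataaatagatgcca
In the Trem2 stretch the match to the AP-1 pattern, with A at its centre, begins at position -9. The PU.1 match, on the opposite strand, begins at position -40, both counted from the start site.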

How the data were processed

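Liver RNA of apoE-KO mice on 2 diets, 3 arrays each, was measured on one-colour Agilent arrays. The authors deposited the spot intensity values of the scanner, background-subtracted by Agilent Feature Extraction (9.1 by the submitters' notes, 9.5 by the headers of slide 1) and not normalized between arrays. The deposited log2 table holds 1 value per probe and diet for 23458 probes, filtered in GeneSpring, and served as an alternative. Regressed on the differences used here, its own had slope 1.00 and offset -0.24, which shows log2 values of the same direction with another centring.

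Control spots and 75 to 196 outlier spots per array were left out of the 43379 others, and each log2 processed signal was expressed against the array's 75th percentile, with no pseudocount. The brightest probe stood for a gene, and genes were kept if their probe passed the background mark on every array of 1 or both diets (16727). The diets were compared with limma 3.58.1 (lmFit and eBayes, R 4.3.3) on all genes, with Benjamini-Hochberg adjustment and a threshold of 0.05. The fit was tested on simulated data with known changes. A bound (at least N-fold) set the mean of the bright diet against the higher of the lowest passing signal and the probe's own reading, averaged over the arrays of the dim diet. Precision is limited by the number of arrays, and 3 against 3 cannot go below an exact permutation p of 0.10.

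The 10 genes, the 22 lists (240 genes, of which 235 matched by array name, accession or older symbol, and 212 were tested) and the tests were chosen with earlier results of these data known, so no list is independent evidence. Named list genes were those called that passed on all 6 arrays with no overlap of the diets, up to 4 per list by size, and the 5 with the highest r. Others are said to be chosen after their values were seen, are the few called of a list or stand for its genes that were not called. Array gene names were updated through RefSeq accessions (GRCm38.p6), and probe positions are those of mm7. Alternatives were the background correction, the scaling, the filter, the choice of probe, the block for slide, leaving out each array and the methods' t-test. Some of the probe sequences and the value of 1 listed gene are not reported here.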

Additional observations from a re-analysis of the deposited data

How the results depend on the processing

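The directions of the 10 genes held in the alternatives run on the probe used, and their median of 1.75 became 1.38 in the deposited per-diet values, which hold 9 of the 10, and 1.64 to 1.90 when an array was left out. Other probes reversed the sign for Gpnmb (A_52_P417819, -0.064) and Cd9 (A_51_P323341, -0.43), both not well above background on any array. Median scaling moved the median of all genes from -0.02 to -0.26 and normexp to -0.11, so differences under these are read relative to that shift. The counts of called genes moved more. Of all genes, 488 were called by limma, 0 with normexp (306 at an unadjusted p under 0.05), 26 without the filter, 11 with slide as a block, 5 by the methods' t-test after adjustment (1402 higher and 1389 lower before) and 42 to 3944 with an array left out, lowest without normal chow replicate 2 and highest without the first high-Chol array.

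The count of other lipid-associated macrophage genes went from 11 to 0 with normexp, 3 without the filter, 7 with the filter for all 6 arrays, 1 with the block, 1 by the t-test and 3 to 17 with an array left out. For the TREM and ITAM genes it went from 6 to 0 with normexp, without the filter, with the block and by the t-test (3, 10, 7 and 11 at an unadjusted p under 0.05), and to 0 to 9 with an array left out. For lysosomal genes it went from 1 to 0 with normexp, median scaling, no filter, the block and the t-test, and to 0 to 3 with an array left out. For the transcription factors it went from 2 to 0 with normexp, median scaling, quantile normalization, no filter, the block and the t-test, to 1 with the filter for all 6 arrays and to 0 to 3 with an array left out. For the relatives and partners it went from 5 to 0 with normexp and by the t-test, 2 without the filter, 3 with the filter for all 6 arrays, 1 with the block and 2 to 14 with an array left out. The causes were not tested. No paired analysis was possible because nothing in the labels ties an array of one diet to an array of the other. Gpnmb, Mmp12, Ch25h, Clec4e, Trem3, F13a1 and Retnlg were not well above background on any normal chow array, so a bound is given for each, and the exact differences given for Gpnmb are measured values and not sizes of change. Clec4d, Ccr2 and Spi1 passed on 1 of 3 normal chow arrays.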
